A study of Mus musculus with 42 samples.

Results

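The nuclear-encoded subunits of oxidative phosphorylation are described here in testes and brain of mice that lack PCIF1. PCIF1 is the enzyme that methylates an adenosine next to the mRNA cap, giving the mark m6Am. Members were the protein-coding genes named as subunits of complex I (Nduf a, b, c, s and v genes, without the Ndufaf assembly factors), complex II (Sdha to Sdhd), complex III (Uqcr genes), complex IV (Cox4 to Cox8 genes) or ATP synthase, also called complex V (Atp5 genes). The rule used names and biotype only. It found 84 of the 27409 genes of the testes table and 85 of the 50765 genes of the brain table. In testes 37 genes belonged to complex I, 4 to complex II, 8 to complex III, 17 to complex IV and 18 to complex V. The brain table held the same 84 gene IDs and, in addition, Cox8b of complex IV. Atp5o stood in each table under 2 gene IDs, which were kept apart. The rule leaves out Ndufab1 and Cyc1, which are subunits under other names. It takes in Atp5s, which is not a structural subunit, and files Ndufa4, now counted with complex IV, under complex I.

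The electron transport chain passes electrons from NADH (complex I) or succinate (complex II) through complex III to complex IV, where oxygen is reduced, and ATP synthase uses the resulting proton gradient to make ATP. Each complex except complex II combines subunits encoded in mitochondrial DNA with many more that are transcribed in the nucleus, translated in the cytoplasm and imported. Male germ cells replace several complex IV subunits by testis isoforms, and neurons depend on the chain for most of their ATP.

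As the labels' protocols state, the knockout allele was an 89 bp Cas9 deletion at exon 15 and intron 16 of Pcif1. It takes out the catalytic NPPF motif and leaves a premature stop. The line goes back to B6D2F1/J hybrid embryos (C57BL/6J by DBA/2J) whose founders were bred to C57BL/6J. Testes of adult heterozygous (HET) and knockout (KO) mice were assayed by m6Am-Exo-Seq, in which RNA precipitated with an antibody against m6A (IP) is compared with input RNA. Brains of adult wild-type (WT) and KO mice were assayed by ribosome footprinting, in which ribosome-protected fragments are compared with input RNA from the same lysate. Each of these 8 groups held 3 libraries, 24 in all. The control in testes was HET, with 1 intact copy of the gene, and in brain WT. The 18 libraries of whole-tissue RNA-seq were not analysed here. The labels describe 3 animals per genotype for footprinting but do not tie the testes libraries to animals, so the p-values for testes measure the spread between these libraries.

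Pcif1 itself had a signal of 5.53 to 10.4 in HET and 1.64 to 7.98 in KO inputs of testes, and of 253 to 388 in WT and 201 to 259 in KO inputs of brain. These are values over the whole gene, and the deletion covers only a short stretch of it, so they check the genotype labels little. Testes inputs held 4151226 to 4971554 reads. HET IP libraries held 2689591 to 6574479 and KO IP libraries 1816831 to 4364847, with KO library 2 the shallowest. Round spermatid markers summed to a signal of 5306 to 5769 in HET inputs and 4083 to 4563 in KO inputs, and spermatocyte markers to 1607 to 1775 and 1925 to 2081. Among the listed markers of testis cell types, Spem1 and Odf1 of elongating spermatids were at 0 in every KO input, Spem1 also in every KO IP library, and Catsper3 of round spermatids in every KO IP library. The elongating spermatid list as a whole summed to 39694 to 42537 in HET inputs and 35029 to 36062 in KO inputs. Of its 10 markers 7 were tested in input, with 0 higher and 1 lower in KO, Oaz3. Macrophage markers summed to at most 41.8 in any testes library. In brain no listed marker of neurons, oligodendrocytes, astrocytes, microglia or endothelium was at 0 throughout a group. Oligodendrocyte markers summed to 20974 to 22124 in WT inputs and 30932 to 33055 in KO inputs. In bulk samples fewer cells of a type and less RNA per cell cannot be told apart.

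The brain footprint libraries of WT fell apart. The library labelled WT 2 correlated across 14377 genes at r = 0.866 and 0.876 with the other WT footprint libraries but at 0.895 to 0.902 with the KO libraries, while WT 1 and WT 3 correlated with each other at 0.921 and with the KO libraries at 0.857 to 0.882, and the KO libraries among themselves at 0.918 to 0.921. WT 1 and WT 3 also had 25.8 and 13.9% of their signal on the non-coding row AY036118, which was at 0 in WT 2 and in all KO footprint libraries. Ribosomal RNA rows took 49.9 and 58.7% of the signal in WT 1 and WT 3, 74.4% in WT 2 and 67.6 to 72.6% in KO. These are shares of the same total, so the lower ribosomal RNA shares of WT 1 and WT 3 are not independent of their AY036118 shares. Protein-coding rows took 22.44% in WT 1, 23.89% in WT 2, 25.62% in WT 3 and 25.34 to 29.96% in KO, and did not set WT 2 apart from WT 1 and WT 3. Whether WT 2 or the pair of WT 1 and WT 3 is the unusual one cannot be told apart from these values, so genotype comparisons of footprints are given with all libraries and with each left out.

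In testes the subunit genes together held a smaller share of the precipitated RNA in KO than in HET, while their share of the input was alike. They took 1.48, 1.53 and 1.55% of the protein-coding signal in the HET inputs and 1.55, 1.53 and 1.53% in the KO inputs. The HET IP libraries had 1.19, 1.41 and 1.35%, and the KO IP libraries 0.882, 0.871 and 0.956%. The 3 KO IP libraries lay below the 3 HET IP libraries without overlap, and the input groups overlapped. Complexes I, III and IV each showed this in the IP without overlap, and complexes II and V overlapped. In the inputs complex V alone did not overlap, with 0.280, 0.282 and 0.290% in HET and 0.302, 0.299 and 0.291% in KO. Complex I had 0.363, 0.348 and 0.391% in HET IP and 0.260, 0.223 and 0.231% in KO IP. Complex III had 0.0712, 0.0667 and 0.0750% in HET IP and 0.0384, 0.0405 and 0.0381% in KO IP. A signal here is the deposited value. In testes it is a read number rescaled by 1 factor per library, while brain values were not whole multiples of 1 read. In brain the shares were 1.14 to 1.23% of the WT inputs and 1.16 to 1.23% of the KO inputs, 1.33 to 1.39% of the WT footprints and 1.47 to 1.57% of the KO footprints. The KO footprint libraries lay above the WT ones, WT 2 included, without overlap. By complex the genotypes did not overlap in complex V, with 0.555, 0.555 and 0.627% in KO and 0.481, 0.483 and 0.493% in WT, nor in complex III, with 0.151, 0.157 and 0.157% in KO and 0.115, 0.146 and 0.127% in WT. Complexes I, II and IV overlapped.

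**Figure D1:**
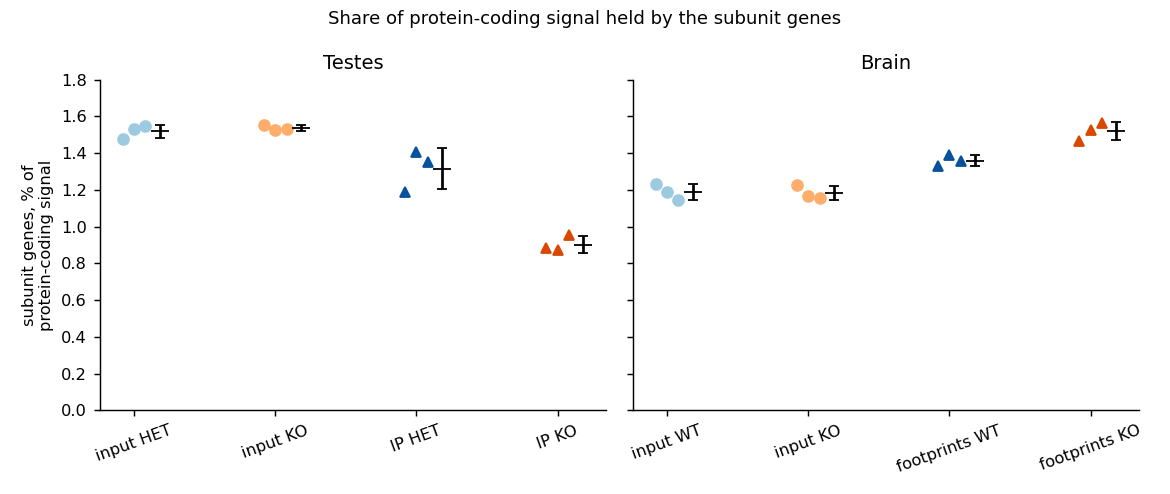
Share of the protein-coding signal held by the subunit genes (y axis, percent) in each library of testes (left) and brain (right). Symbols are single libraries, and the black mark with bars is the mean ± SD of 3; the KO IP libraries of testes lie between 0.871 and 0.956%, below the 1.19 to 1.41% of the HET IP libraries.

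Testis isoforms of complex IV were well represented in the testes inputs, and the partners of Cox8c and Cox7b2 were at or near 0. Cox6b2, the testis form of a subunit at the dimer interface, had a signal of 2929 ± 157 (SD, n = 3) in HET input, and its partner Cox6b1 had 138 ± 33.9. Cox8c, a testis form of a very small subunit, had 2746 ± 79.3, while Cox8a had 0 to 3 reads in any testes library. Cox7b2, another testis form, had 82.2, 94.2 and 109 in HET input, and Cox7b had 1 read in 1 of the 12 libraries. These signals are not divided by transcript length, so no ratio between isoforms is given. The muscle and lung forms were at the lower limit, with at most 1 read per library for Cox4i2 and Cox6a2 and at most 4 for Cox7a1. A count of 0 allows up to 3 reads, which equals a signal of 1.96 to 6.61 depending on the library.

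In brain input the testis forms were at or near 0, and their partners were not. Cox6b1 had 734, 634 and 552 in WT input and Cox6b2 had 6.18, 3.30 and 2.78. Cox8a had 1155, 1148 and 1061 in WT input, and Cox8c was listed at 0 in all 12 libraries. Cox7b had 570.3, 708 and 607, and Cox7b2 was at 3.97 or less throughout. Cox8b stayed at 5.93 or less and Cox7a1 at 12.4 or less.

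A subunit that every cell with a respiratory chain needs was also near 0 in testes. Uqcrfs1, the Rieske iron-sulfur protein of complex III, had 0 to 6 reads per library. It was abundant in brain, with 459, 409 and 384 in WT input. A low value in the testes table therefore does not show that a subunit is missing from the tissue. Processed copies such as Atp5l2-ps (338.7 in HET input) and Ndufb4c had rows of their own in the testes table. Reads of members with near-identical copies may therefore be split. In all, 14 members fell below the filter for testing in testes, which asked for 3 libraries with a signal of 10 or more, and 70 were tested.

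The input RNA of testes asks whether loss of PCIF1 altered the level of these transcripts. Of the 70 members tested, 1 was higher and 3 were lower in KO than in HET (limma on log2(signal + 1), Benjamini-Hochberg adjusted p below 0.05 over 11278 genes), against 3.32% of all genes higher and 6.01% lower. The median log2 difference of the members was -0.06, beside -0.00486 over all genes tested. With equal totals over all genes the calls were 4 higher and 0 lower members (581 higher and 463 lower genes), and with equal totals over protein-coding genes 5 and 0 (635 and 432 genes). Round spermatid markers had 3 lower of 10 tested in the same comparison, and their part in it was not tested. By complex the medians ran from -0.07 in complex III to -0.00 in complex II.

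Atp5g2 encodes one of 3 precursors of subunit c, the membrane ring of ATP synthase. It had 309.9, 257 and 298 in the HET inputs and 397, 439 and 457 in the KO inputs. All KO libraries were above all HET libraries, and the log2 difference was 0.58 ± 0.10, adjusted p = 0.00504 by limma (SE, n = 3 per group). The other genes for the same protein did not pass the test, with log2 differences of -0.34 ± 0.16 for Atp5g1 and 0.16 ± 0.09 for Atp5g3.

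Ndufa12, an accessory subunit of complex I, had 3047, 3604 and 3579.7 in the HET inputs and 2919, 2450.2 and 2747 in the KO inputs, a log2 difference of -0.33 ± 0.09, adjusted p = 0.0314 by limma. Ndufb10, another accessory subunit, had 225, 240.2 and 243 and 178, 196 and 157, a difference of -0.42 ± 0.11, adjusted p = 0.0372 by limma. Atp5s had 315, 279 and 316 and 261, 204 and 183, a difference of -0.50 ± 0.13, adjusted p = 0.0288 by limma. For these 3 genes no KO input reached the lowest HET input. Each of the 3 calls was lost in 4 of the 6 limma fits that left out 1 library, with adjusted p up to 0.139 for Ndufa12, 0.138 for Ndufb10 and 0.112 for Atp5s, while Atp5g2 kept its call in all 6. Taking the spread from all 12 libraries gave 0 higher and 0 lower members by limma, with 9 higher and 15 lower of all 11278 genes. On the recovered reads edgeR gave 1 and 3 members (439 and 650 genes) and DESeq2 2 and 3 (348 and 598 genes). In the limma fit of the 6 inputs 16 of the 70 members had an unadjusted p below 0.05, beside 2946 of all 11278 genes.

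The representative members did not pass the test in input. The log2 difference was 0.21 ± 0.11 for Ndufs1, the largest core subunit of complex I, 0.13 ± 0.09 for Sdha, the flavoprotein of complex II, 0.03 ± 0.07 for Cox4i1 of complex IV and 0.15 ± 0.11 for Atp5b, the catalytic beta subunit. The core subunits of complex I gave 0 called of 6 tested, and the F1 subunits of ATP synthase 0 of 5. Of 4 mitochondrially encoded subunits tested, 2 were higher in KO, mt-Nd4 and mt-Atp6, and the list had a median of 0.65.

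Within HET testes the IP was compared with input to show which transcripts the antibody recovered. Of the 70 members, 4 were higher in IP than in input and 20 were lower, against 14.7% of all 12387 genes higher and 15.4% lower. The median log2 difference was -0.28 for the members and 0.02 for all genes. Complex I had 2 higher and 9 lower of 31, complex II 1 lower of 4, complex III 1 higher and 2 lower of 7, complex IV 1 higher and 3 lower of 12 and complex V 5 lower of 16.

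The members enriched in HET were Uqcrb, a small subunit that binds ubiquinone in complex III (1.08 ± 0.17, adjusted p = 0.000192), Ndufb8 (1.01 ± 0.15, adjusted p = 0.00011) and Ndufa7 (0.54 ± 0.13, adjusted p = 0.00447), accessory subunits of complex I, and the testis isoform Cox6b2 (0.69 ± 0.12, adjusted p = 0.000618), as log2 differences by limma. Uqcrb had 345, 431 and 486 in HET input and 903, 738 and 1028 in HET IP, without overlap. Cox6b2 had 2752, 2981 and 3053 in input and 4279.9, 4531 and 5429 in IP, also without overlap.

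Among members called lower in HET IP by limma, the lowest on the log2 scale was Cox4i1 (-2.27 ± 0.19, adjusted p = 5.67e-07). Next was Atp5a1, the alpha subunit of ATP synthase (-1.50 ± 0.17, adjusted p = 1.1e-05 by limma). Ndufb5, Ndufb9, Ndufa12 and Ndufs4 of complex I followed, at -1.43, -1.36, -1.18 and -1.17. Cox4i1 had 2501, 2626 and 2633 in input and 386, 558 and 716 in IP. Atp5b was also lower in IP (-0.91 ± 0.20, adjusted p = 0.0024), while Ndufs1 (-0.31 ± 0.17) and Sdha (0.14 ± 0.23) did not pass the test. Of the 24 members called, 15 kept their call when any 1 library was left out. Without HET input library 3 the count of lower members was 12, beside 1388 lower of all 12303 genes. Without HET IP library 1 the count of higher members was 8, beside 1729 higher of all 12228 genes. With all libraries 1822 genes were higher and 1910 lower.

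In KO testes most of the subunit genes tested were lower in the IP than in input. Of the 70 members, 3 were higher in IP than in input and 43 were lower, against 21.2% of all genes higher and 24.3% lower. The median log2 difference was -0.78 for the members and -0.07 for all genes. Low values in the IP were not particular to the subunits. In KO, large mitochondrial ribosomal proteins had 27 lower and 3 higher of 41 (median -0.99). Complex IV assembly factors had 10 lower and 0 higher of 17 (-0.90), and tricarboxylic acid cycle enzymes 5 and 1 of 16 (-0.38). Cytosolic ribosomal proteins had 61 lower and 6 higher of 87 in KO (-0.98), and 60 and 4 in HET (-1.10). With equal totals over protein-coding genes the all-gene calls became 1312 higher and 2433 lower in HET and 2055 and 3595 in KO, and the members' calls 4 and 26 in HET and 2 and 52 in KO. In complex I 21 of 31 were lower, with a median of -1.21. In complex II 2 of 4 were lower, in complex III 5 of 7, in complex IV 7 of 12 and in complex V 8 of 16, with medians of -0.73, -0.78, -0.83 and -0.54.

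The lowest values called in KO were in complex I. The log2 difference of IP against input was -3.90 ± 0.43, adjusted p = 3.31e-06 for Ndufv2, an iron-sulfur subunit of the NADH-oxidizing module, by limma. Ndufs4, Ndufa11, Ndufb5 and Ndufa6 were also lower, at -2.98, -2.61, -2.41 and -2.26. Ndufs5 had 29, 25 and 27 reads in the KO inputs and 0, 0 and 5 in the KO IP libraries. It was the only tested member below 10 in every IP library and passed the filter through its inputs alone, so its call, included in the counts above, had to be downward and is given no fold. Ndufb8 stayed higher in the IP (0.67 ± 0.15, adjusted p = 0.00175). Ndufb3 (1.33 ± 0.51, adjusted p = 0.0423) and Atp5s (0.71 ± 0.22, adjusted p = 0.0143) were higher as well. The call of Ndufb3 was lost in 7 of the 12 fits that left out 1 library (adjusted p up to 0.163) and that of Atp5s in 2 (up to 0.0665, without KO input library 3 or KO IP library 2). Without HET IP library 2 the count of higher members was 5, beside 2757 higher of all 12246 genes.

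**Figure D2:**
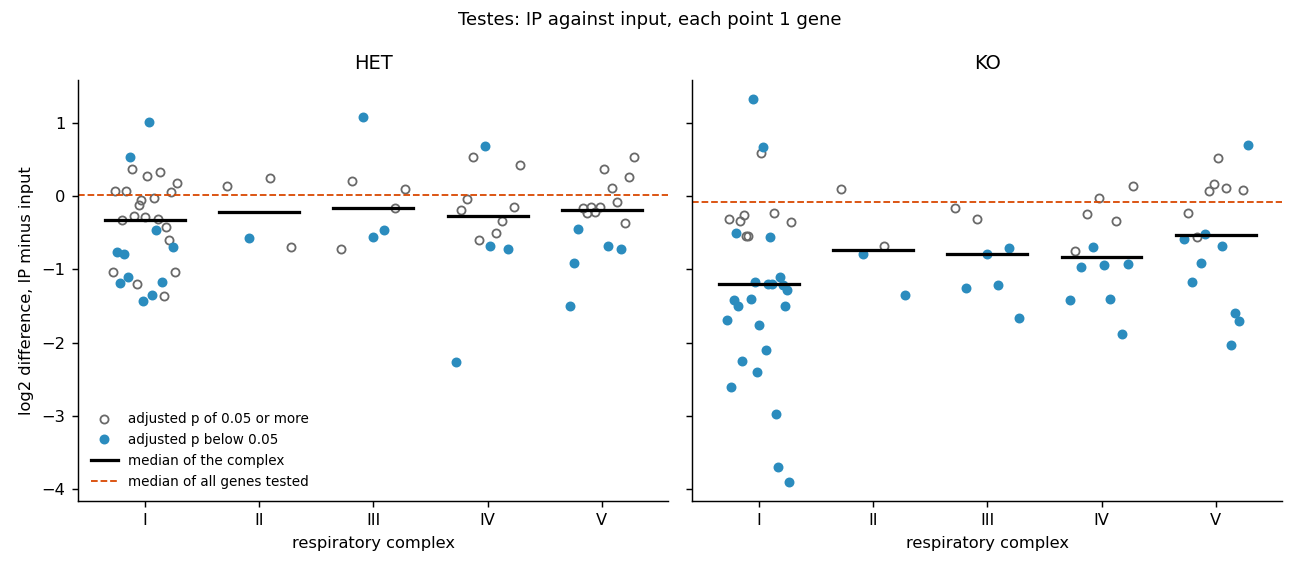
Log2 difference of IP against input (y axis) for the 70 tested members, by respiratory complex, in HET (left) and KO (right) testes. Filled points passed the limma test, black bars are the medians of each complex and the dashed line is the median of all 12387 genes; the complex I median is -0.32 in HET and -1.21 in KO.

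The difference between these contrasts, tested as an interaction over all 12 testes libraries, asks which transcripts were recovered less when PCIF1 was absent. Of the 70 members, 19 had a lower ratio of IP to input in KO and 1 had a higher one, against 6.25% of all genes lower and 3.72% higher. The log2 difference was below 0 for 58 of the 70, and its median was -0.60, beside -0.01 over all 12387 genes. Complex I had 9 lower of 31 (median -0.69), complex II 0 of 4 (-0.43), complex III 3 of 7 (-0.75), complex IV 4 of 12 (-0.63) and complex V 3 lower and 1 higher of 16 (-0.09). Whether the complexes differ from each other was not tested. The interaction uses the libraries of both contrasts, so its count is not independent of theirs.

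Of the 20 calls, 12 held in every one of the 12 fits that left out a library, namely those of Ndufa6, Ndufa7, Ndufa11, Ndufs4, Ndufs8, Ndufv2, Uqcr11, Uqcrb, Uqcrq, Cox5b, Atp5j2 and Atp5o. Without HET input library 1 the count of lower members was 12, beside 420 lower of all 12301 genes. With no filter on low values 13 of 84 members were lower, beside 536 of all 27409 genes.

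Ndufv2 had the largest difference among the members called. Its signal was 157, 151 and 132 in HET input, 149, 118 and 133 in KO input, 73.1, 77.7 and 62.5 in HET IP and 12, 2.20 and 16.2 in KO IP. The KO IP values rested on 8, 1 and 18 reads and lay below all other libraries. The difference of log2 ratios was -2.87 ± 0.60, adjusted p = 0.00894 by limma.

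Ndufa11, an accessory subunit of the membrane arm of complex I, had 92.5, 70.2 and 115 in HET input, 88.6, 112 and 81.8 in KO input, 58.2, 67.9 and 37.5 in HET IP and 12, 13.2 and 18.9 in KO IP. The KO IP values rested on 8, 6 and 21 reads. They did not overlap the HET IP libraries, and the difference was -1.85 ± 0.39, adjusted p = 0.00946 by limma. Ndufs4, an accessory subunit whose loss causes Leigh-like disease in mice, had 412, 521 and 515 in HET input, 439, 444 and 428 in KO input, 151, 227 and 279.6 in HET IP and 61.4, 55.1 and 47.8 in KO IP. Its IP values were below its inputs in both genotypes and lowest in KO, a difference of -1.81 ± 0.28, adjusted p = 0.00157 by limma. Ndufs8, which carries iron-sulfur clusters toward the quinone site, had 105, 98.8 and 114 in HET input, 127, 133 and 124 in KO input, 106, 110.4 and 115 in HET IP and 52.4, 28.6 and 59.5 in KO IP. Its HET IP libraries lay within the range of the inputs while the KO IP libraries lay below, a difference of -1.56 ± 0.33, adjusted p = 0.00879 by limma. Ndufs1 was lower too, with 368, 316 and 357 in HET input, 346, 443 and 419.7 in KO input, 269, 301 and 268 in HET IP and 132, 194 and 207 in KO IP (-0.88 ± 0.25, adjusted p = 0.0336 by limma). Its call was lost in 8 of the 12 fits that left out 1 library. Of the 6 core subunits of complex I that were tested 3 were lower, Ndufv2, Ndufs8 and Ndufs1, with a list median of -0.75.

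In complex III, Uqcrq, a small subunit, had 251, 314 and 342 in HET input, 277, 274 and 276 in KO input, 295, 281 and 402 in HET IP and 82.3, 112 and 69.4 in KO IP. The HET IP libraries overlapped the inputs and the KO IP libraries were far below them, a difference of -1.77 ± 0.28, adjusted p = 0.00157 by limma. Uqcrb had 345, 431 and 486 in HET input, 420.0, 390.0 and 389 in KO input, 903, 738 and 1028 in HET IP and 301, 392 and 287 in KO IP. It was enriched in HET IP, while its KO IP libraries overlapped its KO inputs, a difference of -1.38 ± 0.24, adjusted p = 0.00287 by limma. Uqcr11, another small subunit, was the third lower member of complex III, at -1.46.

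In complex IV the lower members were Cox5b, Cox6b2, Cox7a2 and Cox7b2. Cox5b, which binds zinc on the matrix side, had 6386, 7331 and 7457 in HET input, 6935, 6554 and 6467 in KO input, 6723, 7034 and 6755 in HET IP and 3300.3, 3383 and 3505 in KO IP. The HET IP libraries lay within the range of the inputs and the KO IP libraries below it, a difference of -0.93 ± 0.15, adjusted p = 0.00168 by limma. The testis isoform Cox6b2 had 2752, 2981 and 3053 in HET input, 2796, 2359 and 2395 in KO input, 4279.9, 4531 and 5429 in HET IP and 2613, 2594 and 2237 in KO IP, so that it was enriched in HET IP and overlapped its input in KO IP (-0.71 ± 0.18, adjusted p = 0.02 by limma). Its partner Cox6b1 did not pass the test (-0.09 ± 0.31), nor did the testis isoform Cox8c (-0.30 ± 0.48), whose HET IP libraries ranged from 1871 to 7871. The call of Cox6b2 was lost without HET input library 1 or KO input library 1. Cox7b2 (-1.16 ± 0.34, adjusted p = 0.0414 by limma) and Cox7a2 (-0.91 ± 0.27, adjusted p = 0.0415 by limma) lost theirs in 10 and 9 of the 12 such fits.

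ATP synthase held both directions. Atp5j2, subunit f of the membrane part, had 323, 371 and 343 in HET input, 319, 346 and 354 in KO input, 213, 439.5 and 376 in HET IP and 74.8, 61.7 and 119.8 in KO IP. The KO IP libraries lay below all others, a difference of -1.96 ± 0.35, adjusted p = 0.00387 by limma. Atp5a1, the alpha subunit, had 281, 219 and 224 in HET input and 310.1, 319 and 297 in KO input. In the IP it had 80.6, 97.3 and 75.9 in HET and 245, 192 and 186 in KO. Its HET IP libraries lay below the KO IP libraries without overlap, and it was the only member called with a higher ratio in KO (0.92 ± 0.24, adjusted p = 0.0246 by limma). That call was lost in 5 of the 12 fits that left out 1 library, with adjusted p up to 0.0816: without HET input library 1, any of the 3 KO input libraries or HET IP library 3. Atp5b (0.69 ± 0.28) and Cox4i1 of complex IV (0.84 ± 0.26) had positive values that did not pass the test. Among the 5 F1 subunits, Atp5a1 was higher and Atp5c1, the central stalk, was lower (-0.72). Sdha of complex II had 949, 915 and 938 in HET input, 927, 991 and 1164 in KO input, 1423, 708 and 1075 in HET IP and 775, 1429 and 1188 in KO IP, with a difference of -0.04 ± 0.32.

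**Figure D3:**
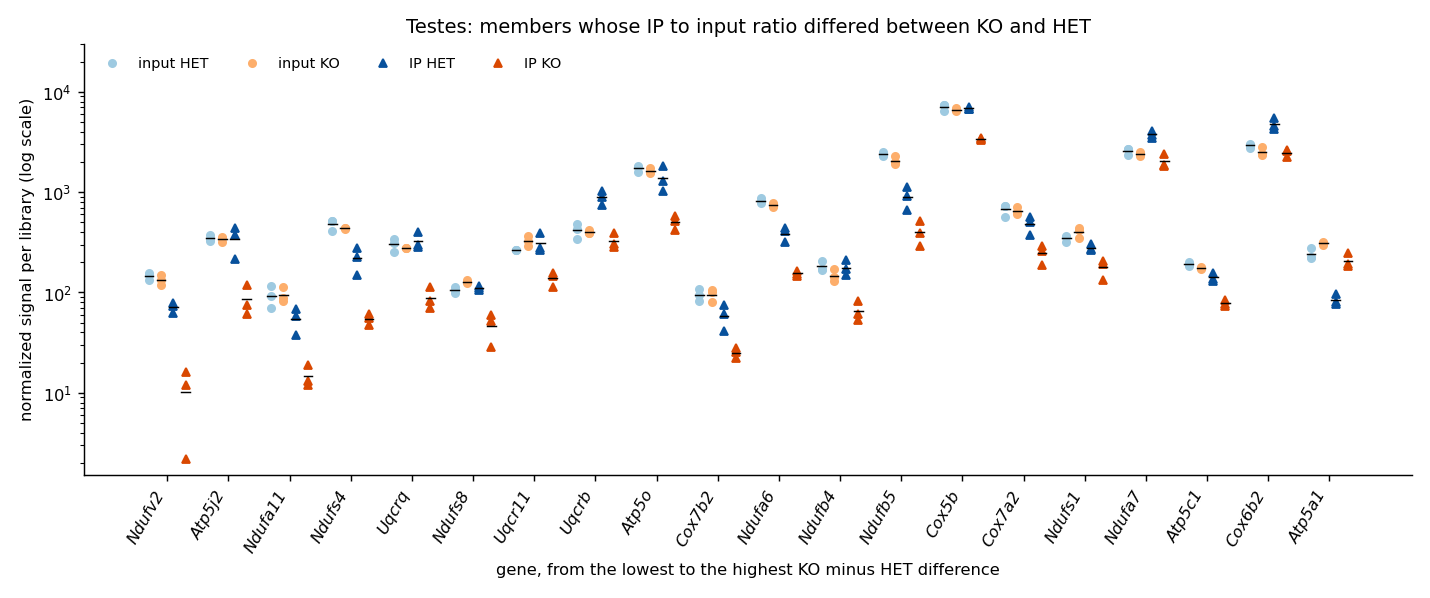
Normalized signal (y axis, log scale) in each of the 12 testes libraries for the 20 members with a called difference in IP to input ratio, ordered from Ndufv2 to Atp5a1. Circles are input and triangles IP, blue HET and orange KO, with a black dash at the mean of 3; for 16 of the 19 genes with a lower ratio the KO IP was called lower than input, for Ndufa7, Uqcrb and Cox6b2 it was not and the HET IP was called higher, and for Atp5a1 the HET IP lies below the KO IP.

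The authors' deposited table gives its own fold and adjusted p-value for this difference. Of the 69 members with an adjusted p in the authors' deposited table, 25 were lower and 2 higher in KO at 0.05, with 1754 of 10929 genes called in all. Across genes the log2 folds of the authors' deposited table correlated with the limma interaction at Pearson r = 0.964, from the same libraries.

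Other mitochondrial lists give the setting. Of 41 large mitochondrial ribosomal proteins tested, 7 were lower and 0 higher, with a median of -0.53, and the largest was Mrpl35. Complex I assembly factors had 2 lower of 12 (Ndufaf5 and Foxred1, median -0.14). Assembly factors of complexes II and III had 2 lower of 7 (Uqcc2 and Uqcc1, median 0.37). Those of complex IV had 0 of 17 (median -0.48) and those of complex V 0 of 4 (median 0.02). Enzymes of the tricarboxylic acid cycle had 0 called of 16, with a median of -0.15, and subunits and carriers outside the name rule 0 of 12 (-0.14). Mitochondrially encoded subunits had 0 called of 4, with a median of 0.48. Cytosolic ribosomal proteins, a list added after the values were seen, had 6 higher and 6 lower of 87, with a median of -0.03. They were already low in HET IP against input, with a median of -1.10 beside -0.28 for the members. All these lists share the same libraries and nothing was tested between them.

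Other measures moved with the KO IP libraries. Round spermatid markers summed to 7271 to 8936 in HET IP and 4274 to 4623 in KO IP, and 4 of 10 had a lower ratio, with a list median of -0.72. Spermatocyte markers summed to 2035 to 2626 in HET IP and 2958 to 3266 in KO IP, with 2 lower and 1 higher of 10 and a median ratio of -0.81. Sertoli cell markers summed to 591 to 713 in HET IP and 806 to 943 in KO IP, with 2 higher of 6 and a median of 0.40. The non-coding row Gm42418, which overlaps ribosomal RNA, took 0.0471 to 0.149% of the signal in HET IP and 0.407 to 0.419% in KO IP, and 0.242 to 0.282% against 0.400 to 0.762% in the inputs. The part of any of these, and of the depth of the KO IP libraries, in the members' difference was not tested.

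The m6Am mark can form only where transcription starts at an adenosine, so the annotated first base of the members bears on the assay. RefSeq promoter windows on GRCm38.p6 matched 65 of 83 member symbols, and 60 of these had a single annotated start. The first base was A for 17 of the 60, or 28.3%, beside 36.3% of the 22862 symbols with 1 start in the same table. An annotated start need not be the one used in testes. The windows below run from 20 bases before the start to the 10th transcribed base, and the capital is the first transcribed base. The first 6 belong to the most lowered members with 1 listed start, the next 3 to lowered members that start with A, and the last is Sdha, which starts with A and showed no called difference.
Ndufv2 (chr17:66101550-66101579, minus strand): tgagcgcgcgcgcgccgtgcGtcctgggcg
Atp5j2 (chr5:145191532-145191561, minus strand): cagcctttgcgcgcggctggAgttctgcgg
Ndufa11 (chr17:56717742-56717771, plus strand): taaagttgcgcgctggaaacCtcgcgagag
Ndufs4 (chr13:114388085-114388114, minus strand): aggaagtgagtccctagcggGgatccgtac
Ndufs8 (chr19:3912765-3912794, minus strand): tcgcccaatggcagcatcctGagcttaggc
Uqcr11 (chr10:80406812-80406841, minus strand): gagcgatcgccttcacgcatGcgctatacg
Ndufa6 (chr15:82354282-82354311, minus strand): ccctctgcactgcaggaggcAcggcagcga
Cox5b (chr1:36691467-36691496, plus strand): ttcggctggtcggggcaggaAgcggaagac
Cox7b2 (chr5:71548196-71548225, minus strand): actggattcgcctcggcgccAtctcttttt
Sdha (chr13:74350231-74350260, minus strand): gcgactcggtgcgcaagcgcAgtctgtcgc

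Lowered members began with each of the 4 bases. Of the 14 lowered members with 1 start, 5 began with A, 2 with C, 6 with G and 1 with T. Among tested members with 1 start, 5 of 13 with A and 9 of 39 with another base were lower, with medians of -0.77 and -0.55. Over all genes with 1 start, 8.51% of 2044 with A and 6.10% of 4934 with another base were lower, with medians of -0.11 and -0.00. In HET IP against input, 18.7% of all genes with A were higher, beside 12.5% of those with another base. Of the members, 0 of 13 with A and 2 of 39 with another base were higher there. No difference between the bases was tested.

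Brain input RNA gave 0 called differences between the genotypes for these genes, with all inputs or with any 1 left out. Of 76 members tested, 0 were called by limma in either direction, against 0.176% of all 15298 genes higher and 0.0784% lower. An unadjusted p below 0.05 by limma was found for 6 of the 76 members and 1606 of the 15298 genes. The median log2 difference was 0.06 (all genes 0.02), and the members ranged from -0.41 for Uqcrh to 0.79 for Ndufb4. Uqcrh, the acidic hinge protein of complex III, had 1409, 1284 and 1228 in WT and 1227, 723 and 1057 in KO. The value of 723 came from KO input library 2, which was less like the other inputs. Across 15298 genes it correlated at 0.917 and 0.924 with the other KO inputs and at 0.896 to 0.901 with the WT inputs. KO inputs 1 and 3 correlated at 0.956 with each other and at 0.934 to 0.942 with the WT inputs. Its part in these values was not tested. The log2 difference was 0.07 ± 0.14 for Ndufs1, -0.04 ± 0.11 for Sdha, 0.07 ± 0.10 for Uqcrfs1, 0.09 ± 0.07 for Cox4i1 and -0.05 ± 0.12 for Atp5b. The assembly factors, the tricarboxylic acid cycle and the mitochondrial ribosomal list also had 0 called.

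Footprints gave 0 called of 78 members with all 6 libraries, against 0.146% of 14377 genes higher and 0.0765% lower. By limma 13 of the 78 members and 1546 of the 14377 genes had an unadjusted p below 0.05. The median was 0.12, beside 0.01 over all genes. Without WT 2, 9 members were higher and 5 lower in KO by limma, against 3.31% of all genes higher and 3.46% lower. WT 2 resembles the KO libraries, so leaving it out must widen the difference between the genotypes, and the 2 WT libraries then left are those with AY036118. Without WT 1 or without WT 3 instead, 0 members were called. Oligodendrocyte markers summed to 35042 to 51570 in WT footprints and 61124 to 68204 in KO footprints, and their part in these differences was not tested. Among the higher members were Ndufa1, Ndufa9, Ndufb3, Ndufb5, Ndufb9 and Ndufs3 of complex I, Uqcrh and Atp5c1. The 5 lower members were Ndufa7, Ndufa13 and Ndufs8 of complex I, Atp5d and Atp5g1.

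Uqcrh had the largest difference in footprints without WT 2. Its footprints were 254, 888 and 315 in WT and 789.8, 772 and 1035 in KO. WT 2 lay within the range of KO and the other WT libraries lay far below it. The log2 difference was 1.05 ± 0.44, adjusted p = 0.457 by limma with WT 2, and 1.60 ± 0.18, adjusted p = 0.0158, without it. Ndufb5 footprints were 351, 617 and 352 in WT and 646, 687 and 702 in KO, again with WT 2 beside KO, and Ndufs8 footprints were 1009.6, 542 and 812 in WT and 538, 532 and 435 in KO, with WT 2 beside KO at the low end. Atp5g1 footprints were 492, 176 and 328 in WT and 165, 189 and 173 in KO, where WT 2 again lay within the range of KO. The row Uqcrh-ps1, a processed copy of Uqcrh, had its own signal in brain (mean 95.7 in WT input), so reads of Uqcrh may be split.

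The ratio of footprints to input, a measure of translational efficiency, followed the same course. With all 12 libraries 0 of 81 members were called by limma, against 0.0908% of 16527 genes higher and 0.0968% lower. By limma 11 of the 81 members and 1616 of the 16527 genes had an unadjusted p below 0.05. The median was 0.04, beside -0.00397 over all genes. Without WT 2, 9 were higher and 4 lower, against 2.66% of all genes in each direction, and without WT 1 or without WT 3 again 0 were called. Uqcrh had the largest value without WT 2, at 2.01 ± 0.29 by limma (adjusted p = 0.00807), against 1.46 ± 0.54, adjusted p = 0.487 with it. KO input library 2, where the Uqcrh input was lowest, was part of both fits. The representative members with all libraries were at 0.23 ± 0.26 for Ndufs1, 0.16 ± 0.21 for Sdha, 0.18 ± 0.14 for Uqcrfs1, -0.09 ± 0.15 for Cox4i1 and 0.42 ± 0.17 for Atp5b. The authors' deposited table called 0 of the 80 members with an adjusted p-value, and 126 of 16307 genes.

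**Figure D4:**
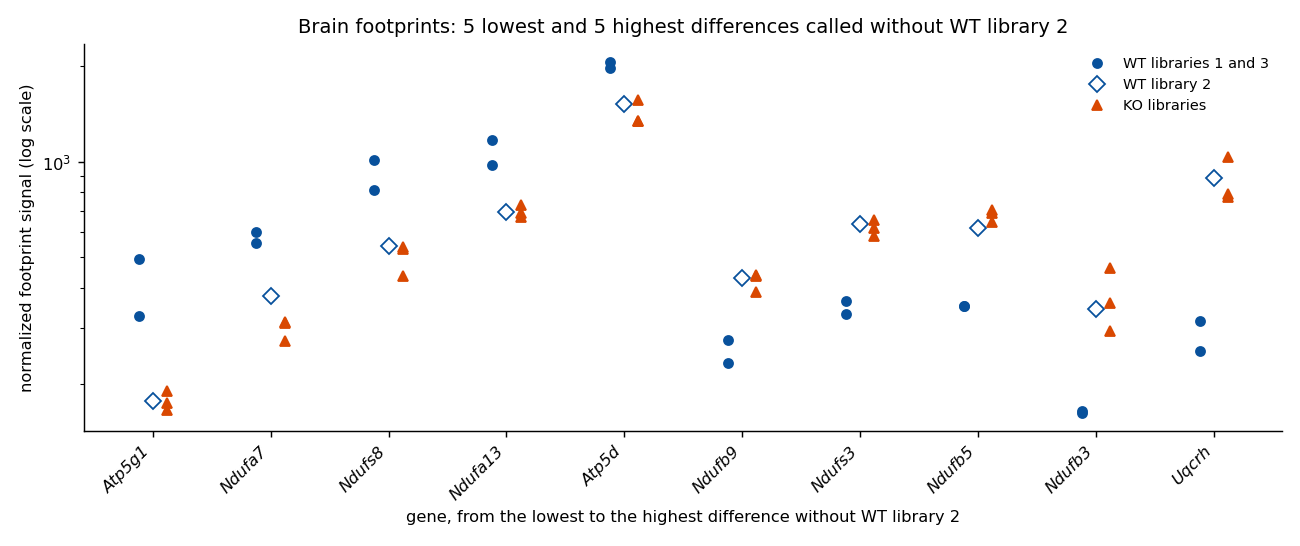
Normalized footprint signal (y axis, log scale) of the 5 members with the lowest and the 5 with the highest difference among those called between KO and WT only when WT library 2 was left out. Filled circles are WT libraries 1 and 3, the open diamond WT library 2 and triangles the 3 KO libraries; for Uqcrh the diamond at 888 stands with the KO libraries at 772 to 1035, above 254 and 315.

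Within each genotype the subunit genes were rich in footprints relative to input. In WT brain 43 of 81 members were higher in footprints and 10 lower, against 25.2% of all genes higher and 29.1% lower, with a median of 0.62 beside -0.09 over all genes. In KO brain 43 were higher and 7 lower, against 24.0% and 28.4%, with a median of 0.66 beside -0.09. These contrasts depend on how the 2 kinds of library are scaled. Without WT footprint library 2 the WT calls were 48 higher and 13 lower members, beside 4257 higher and 5024 lower of all 16424 genes. With equal totals over all genes 11 members were higher and 40 lower in WT and 13 and 27 in KO, and with equal totals over protein-coding genes 35 and 12 in WT and 39 and 11 in KO. The calls over all genes moved with them, from 4168 higher and 4809 lower to 1281 and 10046 in WT with totals over all genes, and from 3962 and 4692 to 1517 and 8836 in KO. The distance between the members' median and that of all genes was 0.71 as deposited, 0.68 with totals over all genes and 0.70 with totals over protein-coding genes in WT.

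Complex I had 22 higher and 2 lower of 37 in WT (median 0.67), complex II 2 and 1 of 4 (0.49), complex III 2 and 2 of 8 (0.18), complex IV 9 and 3 of 15 (1.02) and complex V 8 and 2 of 17 (0.42). Tricarboxylic acid cycle enzymes had 14 higher and 0 lower of 17, with a median of 0.85. Mitochondrially encoded subunits, which are translated inside the organelle, had 5 higher and 5 lower of 13, and cytosolic ribosomal proteins 4 higher and 56 lower of 94.

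**Figure D5:**
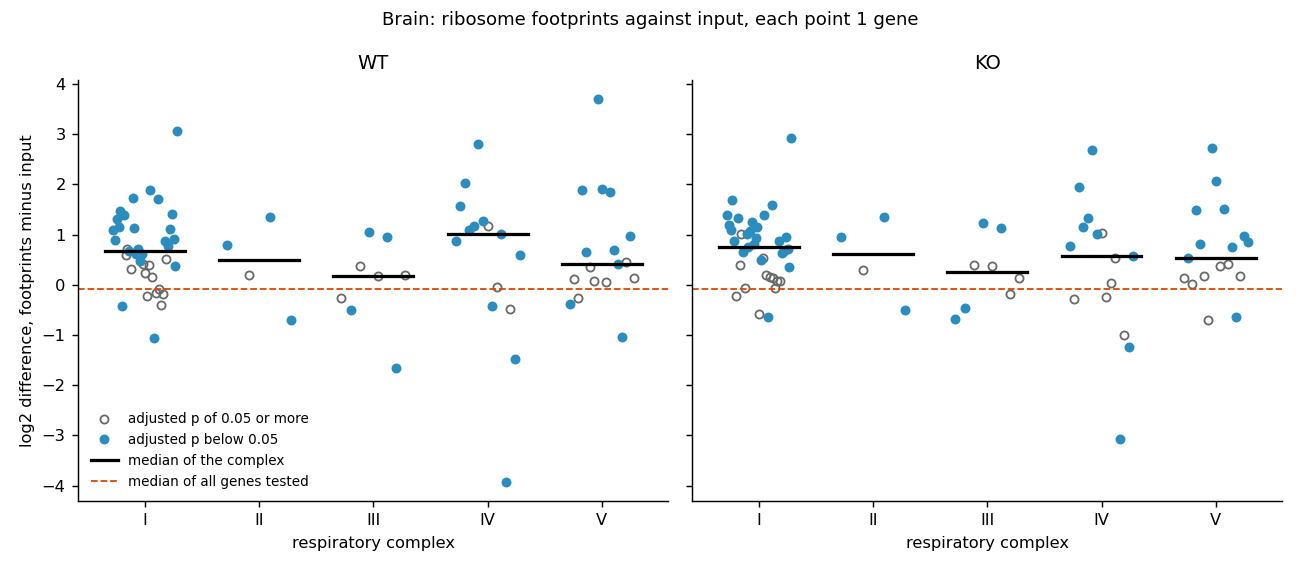
Log2 difference of ribosome footprints against input (y axis) for the 81 tested members, by respiratory complex, in WT (left) and KO (right) brain. Filled points passed the limma test, black bars are medians of each complex and the dashed line is the median of all 16527 genes; Cox7a2l is the lowest point in both, at -3.92 and -3.07.

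The 3 genes for subunit c of ATP synthase encode the same mature protein behind different import sequences, and their ratios were far apart. Atp5g2 had 35.7, 37.3 and 27.0 in WT input and 409.8, 356 and 596 in WT footprints, a log2 difference of 3.71 ± 0.25, adjusted p = 3.66e-07 by limma. Atp5g3 had 528, 507 and 482 in WT input and 1725, 2172 and 1801 in WT footprints, a difference of 1.90 ± 0.12, adjusted p = 1.79e-07 by limma. Atp5g1 had 295, 308 and 262 in WT input and 492, 176 and 328 in WT footprints and did not pass the test (0.08 ± 0.30). In KO the differences were 2.72 for Atp5g2 and 2.07 for Atp5g3, both called, and -0.70 for Atp5g1, which was not. Whether the 3 genes differ from each other was not tested.

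Other members with the highest ratios came from several complexes. Ndufv3, an accessory subunit of the NADH-oxidizing module, had 67.4, 60.6 and 65.5 in WT input and 513, 617 and 505 in WT footprints, a difference of 3.06 ± 0.14, adjusted p = 1.87e-08 by limma. Its KO values were alike, with 70.2, 74.7 and 65.6 in KO input and 515, 613 and 501 in KO footprints. Cox5a, a nuclear subunit that contacts the matrix face of complex IV, was at 2.02 in WT and 1.95 in KO, and Atp5d, the delta subunit of F1, at 1.90 in WT and 1.48 in KO. Cox6a2, the heart and muscle isoform, had 2.29, 4.59 and 4.80 in WT input and 33.4, 27.7 and 36.5 in WT footprints. It was below 10 in every input and passed the filter only through the footprints, so its call in both genotypes, included in the counts above, had to follow that direction and is given no fold. In KO Ndufa12 was among the 6 highest, at 1.70.

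At the other end stood Cox7a2l, a protein of respiratory supercomplexes. It had 566, 571 and 519 in WT input and 31.8, 31.4 and 44.6 in WT footprints and 547, 510.5 and 442 in KO input and 38.9, 66.7 and 76.1 in KO footprints, a difference of -3.92 ± 0.24, adjusted p = 1.62e-07 in WT and -3.07 ± 0.24, adjusted p = 1.18e-06 in KO by limma. Footprints were below input in all libraries of both genotypes. Cox7c, a small membrane subunit of complex IV, was at -1.47 in WT and -1.24 in KO, Ndufb9 at -1.06 and -0.63, Atp5l, subunit g of ATP synthase, at -1.03 and -0.64, and Sdhd, a membrane anchor of complex II, at -0.70 and -0.49. Uqcrh was at -1.65 ± 0.38, adjusted p = 0.00339 in WT by limma and at -0.19 in KO, where it did not pass the test. The difference between these values is the ratio given above (adjusted p = 0.487 by limma with all libraries). Uqcr10 was at -0.27 in WT, where it did not pass, and at -0.69 in KO, a call that was lost without KO footprint library 1 (adjusted p = 0.0552). Sdha (0.79 ± 0.15, adjusted p = 0.000856), Uqcrfs1 (0.96 ± 0.10, adjusted p = 9.67e-06) and Cox4i1 (0.87 ± 0.11, adjusted p = 3.74e-05) were higher in WT footprints by limma. With equal totals over all genes these values were -0.29, -0.12 and -0.21. Ndufs1 and Atp5b did not pass the test in WT (-0.09 ± 0.18 and 0.11 ± 0.12).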

How the data were processed

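Each deposited table gives 1 signal per gene and library. In testes it is reads divided by a factor of the library, and for brain the values do not show how it was made. Tools listed in the submitters' processing notes, with no role stated, are DESeq2 1.25.10, DESeq, STAR, Salmon 0.12.0 and R 3.6.2. Build, annotation, strand setting and filters: not given in the sources used here. The log2 fold and adjusted p-value columns are the authors' own comparison in each deposited table. In testes 100% of values were whole multiples of 1 read within a tolerance of 0.01, so reads were recovered; brain values were not, so their depth is unknown and no count model was run there. The planned edgeR test for raw counts was replaced by its stated alternative, limma 3.58.1 (empirical Bayes with a trend) in R 4.3.3 on log2(signal + 1), which understates changes of low genes. A gene was tested if 3 libraries of the fit had a signal of 10 or more, with Benjamini-Hochberg adjustment over all of them at 0.05. The 6 libraries of each kind were compared alone, and ratios were fitted over all 12. The fit was tested on simulated data. Alternatives were a pseudocount of 8, no filter, other scalings, the spread of all 12 libraries, each library left out, and for testes edgeR 4.0.16 and DESeq2 1.42.0 on the recovered reads and KO IP against HET IP alone. The cytosolic ribosomal list was added after the data were seen. Libraries were numbered in accession order and not paired. Named were all members called where these were 12 or fewer, otherwise the 6 largest each way, plus representatives of each complex and the complex IV isoforms. The members and lists were chosen with earlier results of these data known. Sequences are from RefSeq on GRCm38.p6. Results for 1 member are not reported here.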

Additional observations from a re-analysis of the deposited data

Results flagged for a closer look

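For 20 members the IP against input difference in testes differed between KO and HET by limma's interaction term (Benjamini-Hochberg adjusted p below 0.05 over 12387 genes). Values are the KO minus HET difference of log2 ratios. In complex I it was -2.87 for Ndufv2, -1.85 for Ndufa11, -1.81 for Ndufs4 and -1.56 for Ndufs8. Ndufa6 had -1.15, Ndufb4 -1.12, Ndufb5 -0.97, Ndufs1 -0.88 and Ndufa7 -0.80. In complex III Uqcrq had -1.77, Uqcr11 -1.46 and Uqcrb -1.38. In complex IV Cox7b2 had -1.16, Cox5b -0.93, Cox7a2 -0.91 and the testis isoform Cox6b2 -0.71. In ATP synthase Atp5j2 had -1.96, Atp5o -1.33 and Atp5c1 -0.72, while Atp5a1, the only member with a higher ratio in KO, had 0.92. Of these calls, 8 were lost in at least 1 of the 12 fits that left out a library, those of Atp5c1 (10 fits), Cox7b2 (10), Cox7a2 (9), Ndufb5 (9), Ndufs1 (8), Atp5a1 (5), Ndufb4 (3) and Cox6b2 (2).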

How the results depend on the processing

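Values below are members called or, where named, medians of log2 differences. The calls over all genes moved with these settings as well. In testes input they were 374 higher and 678 lower genes, and 9 and 15 with the spread of all 12 libraries. Leaving out 1 library gave 95 to 494 higher and 186 to 939 lower genes there. Testes input gave 1 higher and 3 lower members; equal totals gave 4 and 0 over all genes and 5 and 0 over protein-coding genes, the spread of all 12 libraries 0 and 0, and DESeq2 2 higher, and leaving out 1 library gave 1 to 2 higher and 0 to 5 lower. For HET IP against input (4 and 20), no filter gave 13 lower, DESeq2 7 higher and totals over protein-coding genes a median of -0.41, and leaving out 1 library gave 4 to 8 higher and 12 to 26 lower. For KO IP against input (3 and 43) totals over protein-coding genes gave a median of -0.93, and leaving out 1 library 2 to 5 higher. For the ratio in testes (1 and 19) a pseudocount of 8, edgeR and DESeq2 each gave 2 higher and IP alone 4, and leaving out 1 library 0 to 2 higher and 12 to 22 lower. For brain footprints and their ratio to input limma called 0 members. By limma 13 and 11 members had an unadjusted p below 0.05, beside 1546 of 14377 and 1616 of 16527 genes. Leaving out 1 library gave 0 to 9 higher members each, and 0 to 5 and 0 to 4 lower. Totals over all genes moved the members' medians to 0.37 and 0.28, and those of all genes to 0.26 and 0.22. For footprints against input, totals over all genes gave 11 higher, 40 lower and a median of -0.46 in WT and 13, 27 and -0.17 in KO, and moved the median of all genes to -1.14 in WT and -0.89 in KO. Totals over protein-coding genes gave medians of 0.35 in WT and 0.45 in KO, with 11 lower in KO, a pseudocount of 8 a median of 0.56 in KO, and leaving out 1 library medians of 0.54 to 0.66 in WT and 0.58 to 0.71 in KO. Of the members followed singly here, these changed sign with totals over all genes: in WT Sdha (-0.29), Atp5b (-0.96), Cox4i1 (-0.21) and Uqcrfs1 (-0.12), and in KO Atp5b (-0.29), Ndufs1 (-0.69) and Cox4i1 (-0.0454). The cause was not tested. No paired analysis was possible because the labels carry no replicate numbers. Low reads limit several members called lower in KO IP, among them Ndufv2 and Ndufs5. In the KO IP libraries Ndufa11 had 8, 6 and 21 reads, Ndufb6 1, 4 and 6 and Ndufb9 5, 6 and 11. Sdhd had 6, 4 and 9 there, Ndufa1 3, 1 and 14 and Ndufb2 19, 4 and 5. The depth of brain libraries is unknown.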
